A study of Mus musculus with 4 samples.

Results

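The T cells of the excisional skin wound were examined in the single-cell RNA sequencing libraries of sorted CD45+ cells. A cell was taken as a T cell when it carried at least 2 unique molecular identifiers (UMIs, tagged transcript molecules) of Cd3e and Cd3g together and none of Ncr1, Hdc or Csf1r. These counts chose 250 of the 19827 cells that had at least 200 genes and at most 10% mitochondrial UMIs, or 1.26% of them. Angptl4 encodes a secreted angiopoietin-like protein that inhibits lipoprotein lipase, and the study asked how its loss alters the immune cells of healing skin. Punch wounds of 3 mm on the back of male mice were collected 1 or 5 days post wounding (dpw) and dissociated with collagenase and DNAse, and live cells, those that took up no propidium iodide, were sorted for CD45, the surface protein of all leukocytes. The 4 groups were Angptl4+/+ wounds at 1 dpw, Angptl4+/+ wounds at 5 dpw, Angptl4-/- wounds at 1 dpw and Angptl4-/- wounds at 5 dpw. The labels give the strain C57BL6/J for all 4 groups, while the study's methods name that strain for the wild-type mice, from a commercial breeder, and a mutant mouse repository as the source of the Angptl4-/- mice, so genotype and source cannot be told apart. Apart from the wound the mice had no treatment, and the deletion was present in all cells of the Angptl4-/- mice. Each group was 1 library, and the number of mice in a library was not given in the sources used here.

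No difference between groups could therefore be tested. Intervals below are 95% intervals that cover counting error only and leave out the variation between wounds and between mice. The Angptl4+/+ library held 18 T cells at 1 dpw and 114 at 5 dpw, and the Angptl4-/- library held 13 and 105. Their T cells carried 119243, 1343267, 81634 and 968321 UMIs in that order, so the 1 dpw libraries bound every comparison between days. Expression is given as UMIs of a gene summed over the T cells of a library, per 1000000 UMIs of those cells (CPM). A higher share of cells using a gene and more transcript per cell cannot be told apart in such a sum, and the number of cells with a UMI is given where it matters.

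T cells recognise antigen through a receptor of paired alpha and beta or gamma and delta chains, which signals through the invariant CD3 chains encoded by Cd3d, Cd3e, Cd3g and Cd247. Most T cells carry the alpha-beta receptor and use CD4 or CD8 as coreceptor, and CD4 T cells that express the transcription factor Foxp3 are regulatory T cells, which restrain inflammation and in skin also take part in repair. Mouse skin further houses gamma-delta T cells, among them dermal cells that make interleukin 17 and epidermal cells that take part in closing wounds.

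The label T cell was checked with transcripts that the choice did not use. Trbc2, the constant region of the receptor beta chain, was seen in 248 of the 250 cells, and Cd3d in 242. Ms4a4b, a membrane protein of T cells, was seen in 208, and Lck, the kinase that starts receptor signalling, in 198. At the edge of the choice stood 4 cells with exactly 2 UMIs of Cd3e and Cd3g, all with Trbc2. Just outside were 8 cells with a single UMI, 6 of them with Trbc2. The other 246 cells had 3 UMIs or more, and the median was 7.5 and 10 UMIs in the Angptl4+/+ libraries at 1 and 5 dpw and 8 and 11 in the Angptl4-/- libraries. No barcode of a T cell was shared between libraries, while any pair of libraries shared 4 to 15 barcodes among all cells.

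The exclusions removed cells that also carried T cell transcripts. An Hdc UMI (histidine decarboxylase, carried here by most cells with Csf3r, the neutrophil growth factor receptor) kept out 54 cells with 2 or more Cd3e and Cd3g UMIs, of which 51 had Trbc2. A Csf1r UMI (the macrophage growth factor receptor) kept out 26, of which 25 had Trbc2, and an Ncr1 UMI (an activating receptor of NK cells) kept out 11, of which 7 had Trbc2. The Hdc and Csf1r counts overlap, since some cells carried both. Of the 54 cells with Hdc, 33 had more than 40 UMIs of the neutrophil transcripts S100a8 and S100a9 and 21 had at most 12.

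Markers of other leukocytes were low but present in the T cells. Csf1r, Ncr1 and Hdc belong to the macrophage, NK cell and mast cell lists and were at 0 by the choice. The sums of those lists were thus held down in part by the choice itself. The summed level of 8 neutrophil markers was 604 and 185 CPM in Angptl4+/+ T cells at 1 and 5 dpw and 637 and 235 CPM in Angptl4-/- T cells, most of it S100a8 and S100a9, while Csf3r was seen in 5 of the 250 cells. The 12 macrophage markers summed to 319, 199, 159 and 160 CPM in the order Angptl4+/+ 1 dpw, Angptl4+/+ 5 dpw, Angptl4-/- 1 dpw and Angptl4-/- 5 dpw, led by Ctsb, with Adgre1 at 0. The 10 NK cell markers summed to 537, 322, 282 and 404 CPM in the same order, led by Gzma or Fcer1g, with Klra8 at 0. The 7 B cell markers summed to 386, 375, 159 and 240 CPM, of which Ighm was 302, 250.1, 147 and 166 CPM, with Cd79a, Ms4a1 and Ebf1 at 0. Mast cell and basophil markers did not pass 1.03 CPM in any library and red cell markers did not pass 2.07 CPM. The 8 group 2 innate lymphoid markers summed to 520, 301, 269 and 277 CPM, and several of them, such as Gata3 and Klrg1, are also T cell genes. Of the 9 skin stromal markers, Pecam1 held most of the 126, 43.2, 49.0 and 55.8 CPM. Dendritic cell markers stood apart by day, at 25.2 CPM in Angptl4+/+ T cells at 1 dpw and 1502 CPM at 5 dpw, and at 36.7 and 826 CPM in Angptl4-/- T cells. Cd74, the invariant chain of class II antigen presentation, led them, and 4 Angptl4+/+ cells and 1 Angptl4-/- cell at 5 dpw held 87.4% and 90.5% of its UMIs. Without these 5 cells the T cell share at 5 dpw was 2.22% and 2.20%. Without the 18 T cells with 5 or more UMIs of S100a8 and S100a9, 51 of 62 named log2 ratios between days in Angptl4+/+ T cells and 66 of 68 between genotypes at 5 dpw stayed within their counting intervals. The part of the other markers in the results was not tested.

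The promoters of Cd3d, Cd3g and Cd3e, all in one cluster on chromosome 9, are shown. The transcripts of Cd3e and Cd3g chose every member, while Cd3d, their neighbour, was not used in the choice. Each run is the 250 bases before the annotated start in RefSeq (GRCm38.p6), on the strand of the gene, from chr9:44981536-44981785 on the plus strand for Cd3d, chr9:44980432-44980681 on the minus strand for Cd3g and chr9:45009612-45009861 on the minus strand for Cd3e. Capitals mark matches on either strand to short core motifs of 3 families of T cell transcription factors, which are RUNX (TGNGGT), ETS (GGAAGT) and TCF/LEF (CTTTGA).
Cd3d: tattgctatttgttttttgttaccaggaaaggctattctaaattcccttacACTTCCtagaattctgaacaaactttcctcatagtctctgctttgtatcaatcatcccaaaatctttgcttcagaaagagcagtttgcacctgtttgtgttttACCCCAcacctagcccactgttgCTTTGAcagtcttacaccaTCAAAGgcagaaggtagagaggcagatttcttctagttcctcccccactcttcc
Cd3g: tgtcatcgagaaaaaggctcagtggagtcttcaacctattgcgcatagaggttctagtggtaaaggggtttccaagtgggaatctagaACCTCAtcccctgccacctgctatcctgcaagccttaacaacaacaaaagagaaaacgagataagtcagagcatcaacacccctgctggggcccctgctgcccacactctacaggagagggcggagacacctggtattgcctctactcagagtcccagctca
Cd3e: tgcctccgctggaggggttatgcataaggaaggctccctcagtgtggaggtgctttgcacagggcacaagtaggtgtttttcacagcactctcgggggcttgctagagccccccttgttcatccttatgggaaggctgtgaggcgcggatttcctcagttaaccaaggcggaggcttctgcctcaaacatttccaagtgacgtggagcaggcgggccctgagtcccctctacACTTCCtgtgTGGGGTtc

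Cd3d held 4 matches, an ETS match 199 bases before the start, a RUNX match at 96 bases and TCF/LEF matches at 73 and 54 bases. Cd3e held an ETS match at 18 bases and a RUNX match at 8 bases, and Cd3g held 1 RUNX match at 162 bases. None of these matches overlapped another. Such short motifs are common, and RUNX, ETS and TCF/LEF letters were found in 40.1%, 19.7% and 13.8% of 32851 promoters of the same kind, from 27025 genes. The matches describe letters in a window and not sites of binding.

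T cells made up a larger share of the CD45+ cells at 5 dpw than at 1 dpw in both genotypes. They were 18 of 5346 Angptl4+/+ cells at 1 dpw (0.337%, exact Clopper-Pearson interval 0.200 to 0.532) and 114 of 4945 at 5 dpw (2.31%, 1.91 to 2.76). In Angptl4-/- wounds they were 13 of 4798 cells at 1 dpw (0.271%, 0.144 to 0.463) and 105 of 4738 at 5 dpw (2.22%, 1.82 to 2.68). The share was thus 6.85-fold higher at 5 dpw in Angptl4+/+ wounds (4.14 to 11.97) and 8.18-fold higher in Angptl4-/- wounds (4.58 to 15.9). In percentage points the day differences were 1.97 (1.54 to 2.44) and 1.95 (1.52 to 2.42).

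Between genotypes the T cell share lay close together. The Angptl4-/- minus Angptl4+/+ difference was -0.0658 points at 1 dpw (-0.291 to 0.163) and -0.0892 points at 5 dpw (-0.685 to 0.509), and both intervals held 0. When every cell was thinned to 1000 UMIs before the choice, so that depth was equal, the shares were 0.191% and 0.856% in Angptl4+/+ wounds and 0.149% and 1.12% in Angptl4-/- wounds, and the order of the genotypes at 5 dpw was the other way round. With at most 5% mitochondrial UMIs they were 0.247%, 1.31%, 0.255% and 1.11% in the library order above. The median over all cells was 4975.5, 3873, 4814.5 and 3735.5 UMIs per cell in the 4 libraries, and 6222.5, 7225, 6138 and 6625 UMIs in the T cells. NK-type cells (Ncr1, without Cd3e, Cd3g, Hdc or Csf1r) were scarcer than T cells in every library, at 5, 63, 9 and 56 cells.

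**Figure D1:**
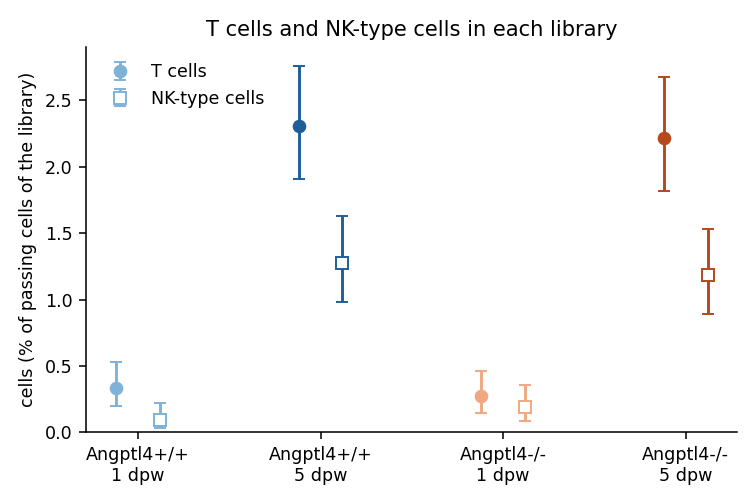
Share of T cells (filled circles) and NK-type cells (open squares) among all passing cells of each library, in percent, with exact 95% counting intervals. T cells stood at 0.337% and 0.271% at 1 dpw and at 2.31% and 2.22% at 5 dpw, above the NK-type cells of the same library.

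Receptor chains and adaptors of receptor signalling were among the transcripts highest in T cells over the other wound leukocytes, beside genes of other kinds. Since the cells were chosen on CD3 transcripts, these values describe the cells and test nothing. Of 3603 genes with at least 100 UMIs in T cells, 799 were at least 2-fold higher than in the remaining cells in all 4 libraries and 128 at least 2-fold lower. Trat1, an adaptor that stabilises the receptor complex, led by the smallest of its 4 log2 ratios (6.76), with 143, 117, 208 and 159 CPM in T cells against 0.245, 0.746, 0.402 and 1.47 CPM in the rest. Themis, needed for selection of T cells in the thymus, had a smallest log2 ratio of 6.29, Bcl11b, the factor that commits cells to the T lineage, 6.10, and Sit1, an adaptor that dampens receptor signalling, 6.10. Trac and Cd3d (5.98 and 5.94), the costimulator Icos (5.79), the chemokine receptor Cxcr6 (5.75), the adaptor Lat (5.62), the coreceptors Cd5 (5.52), Cd4 (5.20) and Cd6 (5.19) and the checkpoint receptor Ctla4 (5.09) followed. Also among them were Actn2 (6.14), an alpha-actinin best known from muscle, Nebl (5.15), a nebulin relative, and Klk8 (5.14), a secreted protease. Trib2 (5.26), Slamf1 (5.15), Trbc2 (5.38) and Cd163l1 (5.09), a scavenger receptor of gamma-delta T cells, completed the first 20.

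NK-type cells, the other lymphocyte class gated here, were separated from T cells by receptor genes on both sides. Over the 4 libraries summed, Cd3d stood at 699 CPM in T cells and 0.914 in NK-type cells (log2 ratio 9.58). Tnfrsf4, the costimulatory receptor OX40, stood at 253 and 0.914 CPM (8.11), and Cd5 at 167 CPM against 0, at least 60.9-fold higher against a floor of 3 UMIs. Ass1, an enzyme of arginine synthesis (7.73), Cd81 (6.38), Fabp5, a fatty acid carrier (5.89), and Ctla4 (5.67) were also among the first 10. On the NK side stood the killer cell lectin-like receptors Klra4 (0.796 against 603 CPM, log2 ratio -9.57), Klri2 (-7.90) and Klre1 (-6.37), the pore-forming protein Prf1 (16.7 against 869 CPM, -5.70), Eomes (-5.66) and the signalling adaptor Tyrobp (40.6 against 1912 CPM, -5.56). The T cells were chosen with Cd3e and Cd3g and without Ncr1, and the NK-type cells the other way round. These gates shape both sides of the comparison, which describes the classes and tests nothing.

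The T cells were mostly of alpha-beta type, and the 7 receptor and CD3 chain genes were at like levels in every library. Trbc2 stood at 1224 and 1210 CPM in Angptl4+/+ T cells at 1 and 5 dpw and at 1372 and 1189 CPM in Angptl4-/- T cells. Trac, the alpha chain constant region, stood at 461, 435, 380 and 505 CPM in the same order, and Cd3d at 738, 601, 637 and 835 CPM. None of the 7 chain genes passed 2-fold in any of the 4 comparisons between libraries. Of all genes 28.5% and 25.4% passed between days in Angptl4+/+ and Angptl4-/- T cells, and 9.95% and 7.04% between genotypes at 1 and 5 dpw. Cd3e and Cd3g are among the 7 and chose the cells, so their like levels test nothing. Cells with Trac and without Trdc, the delta chain constant region, were 77.8%, 79.8%, 69.2% and 78.1% of the T cells, and cells with neither were 2, 12, 2 and 7. The 1 dpw shares rest on 18 and 13 cells.

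Cells of gamma-delta type (Trdc without Trac) were few, with 1 cell at 1 dpw and 6 cells at 5 dpw from Angptl4+/+ wounds, and 2 cells and 11 cells from Angptl4-/- wounds. They were 5.56%, 5.26%, 15.4% and 10.5% of T cells, and 5.56%, 7.02%, 15.4% and 12.4% after thinning each cell to 2500 UMIs. The difference of 5.21 points between genotypes at 5 dpw had an interval from -2.10 to 13.1 that held 0. Trdc is not confined to T cells, since 3, 19, 1 and 23 NK-type cells met the same gate, while 0, 1, 1 and 2 of the 1983, 1502, 1911 and 1985 neutrophil-type cells (2 or more Csf3r UMIs) did, at a median of 5197, 3283.5, 5120 and 3480 UMIs. Cells with both Trac and Trdc were 1, 5, 0 and 5.

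Trdc transcript itself was concentrated in few cells. Its 60 UMIs in Angptl4+/+ T cells at 1 dpw came from 2 cells, its 115 UMIs at 5 dpw from 11, its 53 UMIs in Angptl4-/- T cells at 1 dpw from 2 and its 333 UMIs at 5 dpw from 16. Nearly all of these, 30 of 31 cells, held 5 or more Trdc UMIs. Of the 30, 25 also carried Tcrg-C1, a gamma chain constant region, 21 carried Trdv4, a delta variable segment, and 20 carried Cd163l1. Maf was seen in 23, the kinase gene Blk in 19, Sox13 in 9, Il23r in 8 and Il17a in 7, all genes of interleukin 17-producing gamma-delta cells. Cd4, Cd8a and Cd8b1 were each seen in 0 of the 30, which allows a share of up to 10% with a UMI (a limit of 3 cells), and Trac was seen in 10. Of genes listed for epidermal gamma-delta cells, Itgae was seen in 13, Fcer1g, a signalling chain, in 10 and the chemokine Xcl1 in 4.

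The gamma-delta-type cells were set against the alpha-beta-type cells of the same 5 dpw library. In both genotypes several type 17 and tissue residence genes passed 2-fold higher in them, and several cell cycle genes passed lower. Of the type 17 genes with at least 20 UMIs, 6 of 8 passed 2-fold higher in Angptl4+/+ cells (median log2 ratio 2.01) and 9 of 9 in Angptl4-/- cells (3.15), where 14.2% and 10.8% of all genes tested did. Cd163l1 stood at 953 against 0.828 CPM in Angptl4+/+ and 1055 against 0 CPM in Angptl4-/- cells, and Blk at 327 against 6.62 and 293 against 7.41 CPM. A gene such as Cd163l1 reached 20 UMIs almost only through the gamma-delta-type cells. Its pass was thus fixed by the filter, and the counts above include such genes. Maf stood at 804 against 212 and 1026 against 268 CPM. Cxcr6, a receptor of tissue-dwelling T cells, was at 982 against 182 and 1758 against 290 CPM, and the list of residence genes had 4 of 8 and 7 of 9 past 2-fold higher.

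Cell cycle genes were lower in the gamma-delta-type cells for 9 of 13 genes in either library, beside 7.82% and 15.2% of all genes, and Mki67, a proliferation marker, was at 0 in both against 650 and 259 CPM. Cd28 was at 29.8 against 219 CPM in Angptl4+/+ and 0 against 291 CPM in Angptl4-/- cells, and Tnfrsf4 was at 0 in both against 304 and 246 CPM. Cytotoxic genes took opposite sides, with 5 of 9 higher and 1 lower in Angptl4+/+ gamma-delta-type cells and 1 of 11 higher and 8 lower in Angptl4-/- cells. Nkg7, a cytotoxic granule protein, was at 655 against 247 CPM in the first and 0 against 511 in the second, and Gzmb, granzyme B, at 447 against 169 and 0 against 194 CPM. These values rest on 6 and 11 gamma-delta-type cells, and the difference between genotypes was not tested. Some markers of other cell types moved as well. Of 3 NK cell markers, Tyrobp and Fcer1g passed higher and Gzma lower in Angptl4+/+ cells, and Gzma passed lower in Angptl4-/- cells. Dendritic cell markers passed lower for 3 of 5 and 4 of 5, and of 2 B cell markers Ighm passed lower in both. The part of these markers in the results was not tested.

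**Figure D2:**
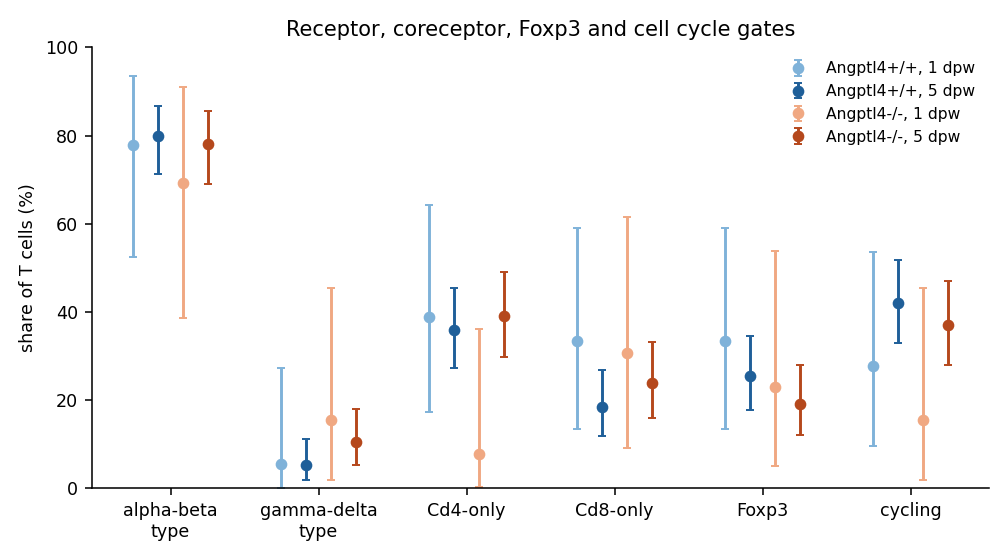
Percentage of the T cells of each library in 6 gates of transcripts, with exact 95% counting intervals. Alpha-beta-type cells formed 69.2% to 79.8% of the T cells, gamma-delta-type cells 5.26% to 15.4%, and the intervals of the genotypes overlap at 5 dpw in each gate.

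Cells with Cd4 and without Cd8a or Cd8b1 outnumbered Cd8-only cells at 5 dpw at full depth, and the counts were close at equal depth. Cd4-only cells were 7 of 18, 41 of 114, 1 of 13 and 41 of 105 T cells, or 38.9%, 36.0%, 7.69% and 39.0%, and Cd8-only cells were 6, 21, 4 and 25, or 33.3%, 18.4%, 30.8% and 23.8%. Thinned to 2500 UMIs, the Cd4-only shares were 16.7%, 17.5%, 7.69% and 21.9%, and at 5 dpw 20 Cd4-only cells stood against 19 Cd8-only cells in Angptl4+/+ and 23 against 24 in Angptl4-/- wounds. At 1000 UMIs these counts were 10 against 12 and 15 against 14. Cells with neither coreceptor were 5, 43, 8 and 33. In Angptl4-/- wounds the Cd4-only share was 31.4 points higher at 5 dpw than at 1 dpw (4.27 to 42.8), resting on a single Cd4-only cell at 1 dpw, and 14.2 points higher when thinned. At 5 dpw the genotypes differed by 3.08 points for Cd4-only (-9.59 to 15.7) and 5.39 points for Cd8-only cells (-5.41 to 16.2). Of the neutrophil-type cells, at most 1 in a library met the Cd4 gate and at most 2 the Cd8 gate.

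Among listed genes with enough UMIs to compare, Cd8-only cells at 5 dpw were higher in most cytotoxic and lower in most regulatory genes than Cd4-only cells. Ccl5, a chemokine that draws T cells and monocytes, stood at 2427 CPM in Cd8-only against 87 in Cd4-only Angptl4+/+ cells and at 3206 against 121 in Angptl4-/- cells. Nkg7 stood at 960 against 114 and 1002 against 233 CPM, and Gzma, granzyme A, at 1227 against 39.2 and 394 against 10.5 CPM. Klrd1, which pairs with NKG2 receptors, stood at 120 against 15.4 and 265 against 2.62 CPM. Of the cytotoxic list, 7 of 8 genes in Angptl4+/+ and 7 of 10 in Angptl4-/- cells passed 2-fold higher, beside 5.31% and 2.79% of all genes. Klrg1 passed lower in both, at 38.2 against 147 and 29 against 194 CPM. Itgae, the integrin chain that holds T cells in epithelium, was at 185 against 80.2 and 149 against 60.3 CPM. Of the cytokine list, 2 of 6 genes passed higher and 1, Areg, lower in Angptl4+/+ cells, and 2 of 8 passed higher and 4, Ifng, Il10, Tnf and Cd40lg, lower in Angptl4-/- cells, with the chemokines Ccl4 and Ccl5 the higher ones in both. Among markers of other cell types in Angptl4+/+ cells, 3 of 5 dendritic cell markers (H2-Aa, H2-Ab1 and Cd74) passed higher and 2 lower, both NK cell markers compared (Gzma and Tyrobp) passed higher, both B cell markers lower and 5 of 5 group 2 innate lymphoid markers lower. In Angptl4-/- cells Gzma passed higher and 3 of 3 group 2 innate lymphoid markers lower, and the part of these markers in the results was not tested.

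Of the regulatory list, 10 of 11 and 7 of 9 genes passed 2-fold lower in Cd8-only cells, beside 16.8% and 7.76% of all genes. The count of 7 includes Il10, whose UMIs in Angptl4-/- T cells at 5 dpw all lay in a single cell. Its pass was thus fixed by the filter, here and in the cytokine list above. Tnfrsf4 stood at 16.4 against 317 CPM and 20.7 against 419 CPM, and Il2ra, the interleukin 2 receptor alpha chain CD25, at 10.9 against 454 and 128 against 469 CPM. Cell cycle genes were lower in Cd8-only cells for 9 of 13 genes in Angptl4+/+ wounds, while 2 were higher and 2 lower of 13 in Angptl4-/- wounds. That difference between genotypes was not tested.

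Foxp3 transcript was found in 58 of the 250 T cells. Angptl4+/+ wounds gave 6 such cells at 1 dpw and 29 at 5 dpw and Angptl4-/- wounds gave 3 and 20, which were 33.3%, 25.4%, 23.1% and 19.0% of the T cells. Foxp3 was seen in 0 of 7381 neutrophil-type cells and 0 of 133 NK-type cells, which allows shares of up to 0.0406% and 2.26% of such cells with a UMI at their depth. The genotypes differed by -6.39 points at 5 dpw (-17.2 to 4.72), and by 0.977 points the other way when thinned to 2500 UMIs (11.4% and 12.4%). Foxp3 itself stood at 176, 90.8, 220 and 74.4 CPM, and its log2 ratio between genotypes at 5 dpw was -0.29 (-0.73 to 0.14).

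Several listed regulatory genes were seen more often in Foxp3 cells than in the remaining T cells, also at equal depth. Ikzf2, the transcription factor Helios, was seen in 57 of the 58 (98.3%) and in 66 of the 192 others (34.4%). Ctla4 was seen in 53 against 30 cells, Tnfrsf4 in 50 against 31, Il2ra in 45 against 44 and Klrg1, a marker of differentiated lymphocytes, in 42 against 13. Il1rl1, the interleukin 33 receptor, was seen in 36 against 11 cells and Areg, the epidermal growth factor family ligand amphiregulin, in 22 against 6. In the other direction Nkg7 was seen in 4 against 93, Cxcr6 in 12 against 126 and Tcf7, a factor of resting T cells, in 5 against 121. With every T cell thinned to 2500 UMIs, Ikzf2 was seen in 50 of the 58 and 41 of the 192, Ctla4 in 36 against 13, Tnfrsf4 in 35 against 15, Il2ra in 30 against 30, Klrg1 in 22 against 8, Il1rl1 in 9 against 5 and Areg in 11 against 3, while Nkg7 was seen in 3 against 84, Cxcr6 in 1 against 96 and Tcf7 in 3 against 64.

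In summed levels at 5 dpw, Klrg1 stood at 170 CPM in Foxp3 cells and 21 in the others in Angptl4+/+ wounds and at 217 and 32.4 CPM in Angptl4-/- wounds (log2 ratios 3.02 and 2.74). Il2ra stood at 449 against 73.4 and 677 against 88.8 CPM (2.61 and 2.93), and Ctla4 at 312 against 56.9 and 363 against 49.5 CPM (2.46 and 2.88). The regulatory list, with Foxp3 left out, had 7 of 11 and 9 of 10 genes past 2-fold higher, beside 13.1% and 16.3% of all genes. Genes entered these counts by their UMIs on both sides together. A gene seen almost only on a single side could thus pass only toward that side. Il10, in the count of 9, had all its UMIs of that library in a single cell, so its pass was fixed by the filter. Lower in Foxp3 cells were Nkg7 (5.92 against 513 and 34 against 724 CPM), Ccl5 (37 against 1114 and 44.4 against 2049 CPM) and Cxcr6 (14.8 against 419 and 28.8 against 676 CPM). Of 11 cytotoxic genes, 9 passed 2-fold lower in either library and 1, Klrg1, passed higher, beside 10.9% and 15.7% of all genes lower. Type 17 genes were lower for 7 of 9 and 8 of 10. Cd163l1 is in both counts and Il17a in the second. Cd163l1 was nearly absent from alpha-beta-type cells, and all Angptl4-/- cells with Il17a at 5 dpw carried Trdc. No cell with Trdc at 5 dpw carried Foxp3. The passes of Cd163l1 and Il17a were thus fixed by the filter, and the counts include such genes. Some markers of other cell types moved with the Foxp3 cells. Ighm, an immunoglobulin heavy chain, stood at 395 against 103 CPM in Angptl4+/+ and 322 against 64.9 CPM in Angptl4-/- cells, and Igkc, a light chain, at 215 against 12 and 133 against 5.12 CPM, so both B cell markers that could be compared passed higher. At 2500 UMIs Ighm was seen in 29 of the 58 Foxp3 cells and 30 of the 192 others. Of the group 2 innate lymphoid markers 2 of 5 and 3 of 4 passed higher, Klrg1 in both. Dendritic cell markers passed lower in Foxp3 cells for 5 of 5 in either library and NK cell markers for 4 of 4 and 3 of 3. The part of these transcripts in the results was not tested.

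**Figure D3:**
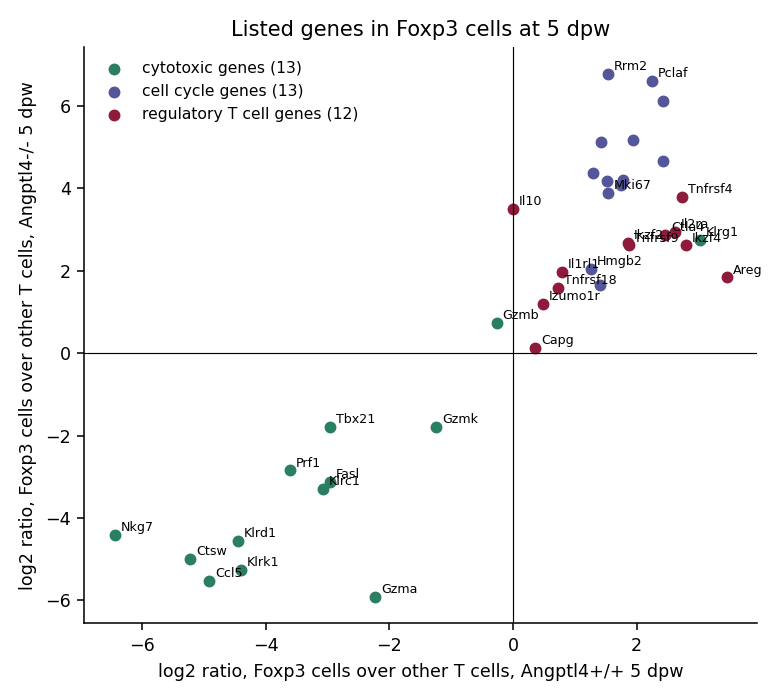
Log2 ratio of Foxp3 cells over the other T cells for 13 cytotoxic, 13 cell cycle and 12 regulatory T cell genes, with Angptl4+/+ wounds at 5 dpw on the horizontal and Angptl4-/- wounds at 5 dpw on the vertical axis. Cell cycle and most regulatory genes lie above 0 in both, cytotoxic genes such as Nkg7 (-6.44 and -4.41) lie below 0 in both, and Klrg1 (3.02 and 2.74) is the cytotoxic gene far on the other side.

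Foxp3 cells carried cell cycle transcript more often than the other T cells. Cells with a UMI of Mki67 or Top2a, genes expressed in dividing cells, were 27.8% and 42.1% of Angptl4+/+ T cells at 1 and 5 dpw and 15.4% and 37.1% of Angptl4-/- T cells. Among Foxp3 cells at 5 dpw they made up 82.8% in the Angptl4+/+ library (28.2% of the other T cells) and 80% in the Angptl4-/- library (27.1% of the others). The differences were 54.5 points (34.4 to 67.4) and 52.9 points (29.0 to 67.5), and at 1 dpw 33.3 points (-8.71 to 66.8) and 66.7 points (13.0 to 93.9) on 6 and 3 Foxp3 cells. All 13 cell cycle genes passed 2-fold higher in Foxp3 cells in either 5 dpw library, with median log2 ratios of 1.54 and 4.37, beside 13.1% and 16.3% of all genes. Foxp3 cells held 1101 of the 1478 Mki67 and Top2a UMIs in Angptl4+/+ and 358 of the 392 in Angptl4-/- wounds. The second median thus rests on few such UMIs in the other T cells. The same gate was met by 1.92%, 1.20%, 2.15% and 1.46% of neutrophil-type cells and 5.07%, 7.23%, 5.28% and 6.29% of macrophage-type cells (2 or more Csf1r UMIs).

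Depth moved with these cells. Foxp3 cells had a median of 18048 and 10624 UMIs at 5 dpw in Angptl4+/+ and Angptl4-/- wounds, against 6116 and 6390 UMIs in the other T cells. Those with both Foxp3 and cell cycle transcript had 22337 and 19050.5, and Foxp3 cells without it 5529 and 6853.5 UMIs. After thinning every T cell to 2500 UMIs, the cell cycle gate held 65.5% of Foxp3 cells against 15.3% of the others in Angptl4+/+ and 40% against 8.24% in Angptl4-/- wounds at 5 dpw. The cells compared were those with a Foxp3 UMI at full depth. Above 20000 UMIs stood 15 Angptl4+/+ cells at 5 dpw, with 42.0% of all T cell UMIs of that library, and 8 Angptl4-/- cells, with 30.0%, and none at 1 dpw. Of these 23 cells, 12 and 7 carried Foxp3, 14 and 8 cell cycle transcript, and 14 and 8 Il2ra. They held 70.0% and 78.8% of the Mki67 UMIs. Of all T cells, 2 were called as doublets, 1 in each 5 dpw library, and the part of doublets in the deepest cells was not tested further.

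**Figure D4:**
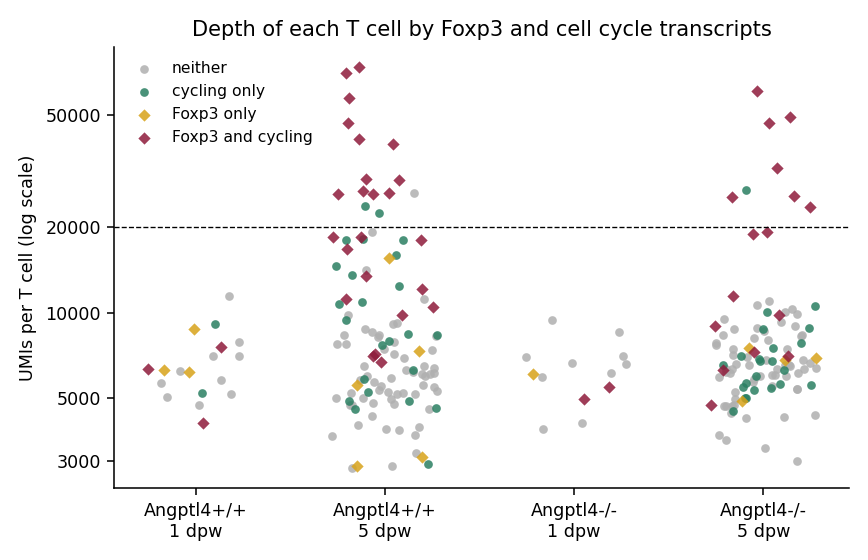
UMIs per T cell on a log scale in each library, by colour and shape according to Foxp3 and Mki67 or Top2a transcript, with a dashed line at 20000 UMIs. The 15 and 8 cells above the line are all from 5 dpw wounds, and 12 and 7 of them carry Foxp3.

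Over the whole T cell pool, 5 dpw differed from 1 dpw in many genes, cell cycle genes among them. In Angptl4+/+ T cells 1956 of 6864 genes with at least 20 UMIs passed 2-fold (28.5%), 963 of them higher at 5 dpw (14%) and 993 lower (14.5%). In Angptl4-/- T cells 1513 of 5967 passed (25.4%), 774 higher (13%) and 739 lower (12.4%). The counting interval left out 0 for 973 and 533 of them, and in 375 and 399 a single cell held at least 50% of the UMIs in the higher library. The split depended on scaling, since edgeR's TMM factors put 69.8% of the calls in Angptl4+/+ T cells on the higher side in place of 49.2%, and 70.6% in place of 51.2% in Angptl4-/- T cells, and moved the median log2 ratio of all genes from -0.03 to 0.16 and from -0.01 to 0.12.

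Mki67 stood at 41.9 CPM in Angptl4+/+ T cells at 1 dpw (5 UMIs in 3 cells) and at 586 CPM at 5 dpw (787 UMIs in 40 cells), a log2 ratio of 3.80 (2.58 to 5.43). In Angptl4-/- T cells it stood at 24.5 CPM (2 UMIs in 2 cells) and 219 CPM (212 UMIs in 26 cells), a log2 ratio of 3.16 (1.29 to 6.21). Top2a, the topoisomerase of dividing cells, was at 25.2 and 514 CPM (4.35, 2.80 to 6.64) in Angptl4+/+ and at 0 and 186 CPM in Angptl4-/- T cells, at least 5.06-fold higher. Hmgb2, a chromatin protein, went from 461 to 1917 CPM (2.06, 1.67 to 2.47) and from 294 to 1009 CPM (1.78, 1.20 to 2.43). All 13 listed cell cycle genes passed 2-fold higher in Angptl4+/+ T cells (median log2 ratio 2.97) and 9 of 13 in Angptl4-/- T cells (1.71), and none passed lower. At 1 dpw 6 of the 13 had no UMI in Angptl4+/+ and 9 had none in Angptl4-/- T cells. Such genes were compared only through their UMIs at 5 dpw. They enter the counts and medians as bounds against a floor of 3 UMIs. Hist1h1b, Hist1h2ap and Smc2, also genes of the dividing cell, were among the 10 highest of both genotypes. Without the cells that carried Mki67 or Top2a, 2 cell cycle genes could still be compared and neither passed in either genotype. That loss follows from how the cells were removed and tests nothing. With each cell weighted alike 11 of 13 passed higher in Angptl4+/+ and 3 of 13 in Angptl4-/- T cells.

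Other genes among the highest at 5 dpw were Cd74 (log2 ratio 5.55 in Angptl4+/+ and 3.49 in Angptl4-/- T cells) and H2-Ab1 (5.08 in Angptl4+/+), whose UMIs lay mostly in the few cells named above, and in Angptl4-/- T cells Fabp5 (4.95, 2.46 to 10.3), Ndufc2 (3.68, 1.18 to 8.99), a subunit of respiratory complex I, Lsm5 (3.64, 1.14 to 8.95), an RNA processing protein, Gzma (3.55) and the maintenance DNA methyltransferase Dnmt1 (3.41, 0.90 to 8.72). Fabp5, Ndufc2, Lsm5 and Dnmt1 each rested on 1 UMI at 1 dpw. A single cell held 48.1% of the 366 Fabp5 UMIs at 5 dpw, and its ratio was 1.70 without cells above 20000 UMIs and could not be told from 0 without cycling cells, when no UMI was left at 1 dpw. Gzma stood at 377 and 205 CPM in Angptl4+/+ and at 24.5 and 287 CPM in Angptl4-/- T cells, with log2 ratios of -0.88 and 3.55 (1.68 to 6.60), on 2 UMIs in the second 1 dpw library and with 62.6% of the 278 UMIs of the Angptl4-/- 5 dpw library in 1 of 7 cells. Of the dendritic cell markers 5 could be compared, with 5 and 3 past 2-fold higher at 5 dpw and median log2 ratios of 3.096 and 1.997. At 1 dpw 8 of the 10 listed markers had no UMI in Angptl4+/+ and 9 had none in Angptl4-/- T cells. Both medians therefore include bounds against a floor of 3 UMIs and cannot be ranked against those of the cell cycle list.

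Several genes of recent activation passed 2-fold lower at 5 dpw in the summed Angptl4+/+ T cells. Junb, a transcription factor induced within minutes of stimulation, stood at 2424 and 916 CPM at 1 and 5 dpw (log2 ratio -1.40, -1.59 to -1.21) and at 1433 and 1002 CPM in Angptl4-/- T cells (-0.52). Jund stood at 2625 and 1003 CPM (-1.39) and at 1409 and 1134 CPM (-0.31), and Fosb at 864 and 343 CPM (-1.33) and at 294 and 399 CPM (0.44). Of the 12 immediate early genes 9 passed 2-fold lower in Angptl4+/+ T cells (median -1.28) and none in Angptl4-/- T cells (median -0.21), where Egr1 passed higher. The difference between genotypes was not tested, and with each cell weighted alike 4 of the 12 passed lower in Angptl4+/+ T cells. Without cells above 20000 UMIs 4 of the 12 did, and without cycling cells 2.

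Interferon-induced genes followed a similar split. Ifit3 stood at 117 and 9.68 CPM in Angptl4+/+ T cells at 1 and 5 dpw (log2 ratio -3.60, -4.81 to -2.40) and at 49 and 57.8 CPM in Angptl4-/- T cells (0.24). Isg15, a ubiquitin-like protein, stood at 67.1 and 14.1 CPM (-2.25) and at 49 and 59.9 CPM (0.29), and Irf7, the factor that amplifies interferon production, at 117 and 36.5 CPM (-1.69) and at 73.5 and 83.6 CPM (0.19). Of 13 listed genes 8 passed lower in Angptl4+/+ T cells (median -1.19), while 1 of 14, Ifit1, did in Angptl4-/- T cells (median -0.10). Ifi27l2a, the most abundant of the list, did not pass in either (-0.40 and 0.17). In Angptl4+/+ T cells 3 of the 13 passed lower with each cell weighted alike. All 8 Isg15 UMIs of the Angptl4+/+ library at 1 dpw lay in 1 cell with 5 or more UMIs of S100a8 and S100a9, so without such cells Isg15 gave no ratio below 0, while Irf7 stood at -0.96 and Ifit3 at -2.45.

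Several cytotoxic and chemokine genes passed 2-fold lower at 5 dpw in the summed Angptl4+/+ T cells, from few cells at 1 dpw. Ccl5 stood at 4235 CPM at 1 dpw (505 UMIs in 6 cells, 347 of them in 1 cell) and at 572 CPM at 5 dpw (769 UMIs in 29 cells), a log2 ratio of -2.89, which was -0.25 without the cells that carried Mki67 or Top2a. When every cell weighed the same, 2 of the 11 cytotoxic genes compared passed lower and 1 higher. Without cells with 5 or more UMIs of S100a8 and S100a9, Nkg7 went from -1.16 to -0.06, Klrd1 from -1.38 to -0.81 and Klrk1 from -1.48 to 0.13. In Angptl4-/- T cells Ccl5 stood at 2928 CPM (239 UMIs in 6 cells) and 1257 CPM (1217 UMIs in 20 cells), a log2 ratio of -1.22. Gzmb stood at 1317 and 165 CPM in Angptl4+/+ T cells (-3.00, -3.30 to -2.70) and at 85.7 and 162 CPM in Angptl4-/- T cells (0.92, -0.16 to 2.26). Of the cytotoxic list 7 of 11 passed lower in Angptl4+/+ T cells (median -1.16), and in Angptl4-/- T cells 2 of 12, Klrg1 and Gzma, passed higher and 4 lower. Of all genes 14.5% passed lower in Angptl4+/+ T cells, and 13% passed higher and 12.4% lower in Angptl4-/- T cells. The count of 2 higher is near that share.

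Beside the list counts between days, above and below, 14% and 13% of all genes passed higher at 5 dpw and 14.5% and 12.4% lower in Angptl4+/+ and Angptl4-/- T cells. Counts near these shares say nothing of a list. Of the naive and recirculating genes, 5 of 10 and 3 of 8 passed lower at 5 dpw and none higher. Lef1, a factor of naive T cells, stood at 243 and 90.8 CPM in Angptl4+/+ (log2 ratio -1.42) and at 147 and 68.2 CPM in Angptl4-/- T cells (-1.11). Regulatory genes passed lower for 5 of 12 in each genotype. Areg, Tnfrsf9 (the costimulatory receptor 4-1BB) and Izumo1r were in both counts, and Foxp3 in that of Angptl4-/- T cells (-1.57). Of the 18 receptor signalling genes 5 passed lower in Angptl4+/+ T cells, and in Angptl4-/- T cells 1 passed higher and 3 lower. Of 18 transcription factors, 17 and 16 had enough UMIs, of which 1 higher and 5 lower passed in Angptl4+/+ and 4 lower in Angptl4-/- T cells, Lef1 in both.

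Chemokine and homing receptors passed lower for 6 of 15 and 3 of 15, with Cxcr4 in both counts, and higher for 1 in each, Cxcr3 in Angptl4+/+ and Ccr6 in Angptl4-/- T cells. Cytokine receptors passed lower for 5 of 13 and 3 of 13, with Il4ra and Il2rb in both, and higher for 1 in each, Il12rb1 in Angptl4+/+ and Il6ra in Angptl4-/- T cells, while Il6ra passed lower in Angptl4+/+ T cells. Costimulation and checkpoint receptors passed lower for 4 of 11 and 3 of 9, with Tnfrsf9 and Cd27 in both. Cxcr6 stood at 226 and 216 CPM in Angptl4+/+ and at 416 and 420 CPM in Angptl4-/- T cells, within 0.07 on the log2 scale between days in either genotype, while with each cell weighted alike the log2 ratios were 0.78 and 0.76. Tissue residence genes passed lower for 3 of 8 and 2 of 9, with Rgs2 and Crem in both. The type 17 list had 1 of 10 higher and 3 lower in Angptl4+/+ and 2 of 10 higher and 2 lower in Angptl4-/- T cells. The gamma-delta receptor genes had 3 of 6 higher and 1, Trdc, lower in Angptl4+/+ and 1 of 6 lower in Angptl4-/- T cells. Of the cytokine genes 7 of 11 passed lower in Angptl4+/+ T cells, and in Angptl4-/- T cells 2 of 14, Il17a and Ifng, passed higher and 3 lower. Of the 3 coreceptor genes Cd8a passed lower in Angptl4+/+ and Cd4 higher in Angptl4-/- T cells. Of the epidermal gamma-delta list 7 of 10 and 2 of 10 passed lower, Xcl1 in both, and 1, Trdv4, passed higher in Angptl4+/+ T cells.

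Several of these counts were smaller in other settings, and some were larger. Regulatory genes passed lower for 7 of 12 in Angptl4+/+ T cells with each cell weighted alike, and for 7 of 12 without cells above 20000 UMIs. Without those deep cells 6 of 12 cytokine receptors passed lower. In Angptl4+/+ T cells without those that carried Mki67 or Top2a, 0 of 10 naive genes passed lower and 1 higher, and 2 of 10 epidermal gamma-delta genes passed lower and 2 higher. In the same setting 0 of 8 residence genes, 3 of 18 receptor signalling genes, 2 of 12 cytokine receptors, 3 of 12 homing receptors, 2 of 12 immediate early genes and 2 of 9 cytotoxic genes passed lower, and of the gamma-delta receptor genes 1 of 5 passed higher and none lower, with Trdc at -0.75 in place of -2.56. With each Angptl4+/+ cell weighted alike 3 of 10 naive, 3 of 10 epidermal gamma-delta, 1 of 8 residence and 2 of 18 receptor signalling genes did. In Angptl4-/- T cells without cycling cells 3 of 8 naive genes passed lower, as with all cells, while 1 of 6 regulatory and 0 of 10 cytotoxic genes did and 3 of the cytotoxic genes passed higher.

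The comparison of the genotypes at 5 dpw had the most cells behind it and the lowest share of genes past 2-fold of the 4 comparisons between libraries, 566 of 8043 (7.04%), with 236 higher in Angptl4-/- T cells (2.93%) and 330 lower (4.1%). The counting interval left out 0 for 416 of them. Among the lists of T cell genes, the highest shares of members past 2-fold were in the gamma-delta receptor, type 17, cytotoxic, cytokine and interferon-induced genes on the higher side and in cell cycle genes on the lower side. In each of these lists other members did not pass, and several of the counts were smaller in the settings given below. Of the gamma-delta receptor genes 3 of 6 passed higher in Angptl4-/- T cells. Trdc stood at 85.6 CPM in Angptl4+/+ and 344 CPM in Angptl4-/- T cells (log2 ratio 2.01, 1.70 to 2.32), Trdv4 at 17.1 and 74.4 CPM (2.12, 1.42 to 2.86) and Tcrg-C1 at 47.6 and 121 CPM (1.34, 0.89 to 1.81). Without cycling cells 2 of the 6 passed, and Tcrg-C1 (0.80) did not. At 1 dpw, Trdc stood at 503 and 649 CPM, above both 5 dpw libraries.

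Of the type 17 list 6 of 13 passed higher in Angptl4-/- T cells at 5 dpw (median log2 ratio 0.98) and none lower. Il17a, the cytokine that gives the list its name, had 7 UMIs in 1 Angptl4+/+ cell and 42 UMIs in 5 Angptl4-/- cells (3.06, 1.89 to 4.46), 61.9% of them in 1 cell. Cd163l1 stood at 44.7 and 118 CPM (1.40, 0.93 to 1.87), and Sox13, a factor of gamma-delta cells, had a log2 ratio of 2.47 (0.84 to 4.51). With each cell weighted alike 4 of 13 passed higher, and without cycling cells 3 of 12. Other passing cells held 0 Il17a UMIs in both Angptl4+/+ libraries. In the Angptl4-/- libraries they held 18 UMIs at 1 dpw (0.658 CPM) and 46 UMIs at 5 dpw (1.77 CPM). These 46 UMIs exceeded the 42 in the chosen T cells, so the Il17a ratio covers only part of the transcript in that library. Cxcr6 stood at 216 and 420 CPM at 5 dpw (0.96, 0.74 to 1.18), just short of 2-fold.

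Cytotoxic genes passed higher in Angptl4-/- T cells for 6 of 13 (median 0.86) and lower for none. Ccl5 had a log2 ratio of 1.13 (1.00 to 1.27), Klrd1 1.20 and Klrk1, the receptor NKG2D, 1.16, and Prf1, Fasl and Gzmk also passed, while Gzmb (-0.02) and Gzma (0.48) did not. With each cell weighted alike 1 of 13 passed, and without the cells above 20000 UMIs 3 of 13, and both settings weigh the deepest cells less. Ifng, the main type 1 cytokine, stood at 19.4 CPM (26 UMIs in 16 cells) in Angptl4+/+ and 100 CPM (97 UMIs in 20 cells) in Angptl4-/- T cells, a log2 ratio of 2.37 (1.73 to 3.06). The share of T cells with an Ifng UMI was 14.0% and 19.0% (difference 5.01 points, -4.86 to 15.0) at full depth, and 6.14% and 13.3% at 2500 UMIs. A single cell held 32.0% of the 97 UMIs. Of 15 cytokine genes with enough UMIs, 6 passed higher and 1, Areg, lower.

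Areg stood at 81.1 CPM in Angptl4+/+ T cells at 5 dpw (109 UMIs in 14 cells) and 10.3 CPM in Angptl4-/- T cells (10 UMIs in 7 cells), a log2 ratio of -2.97 (-4.07 to -2.04). At 1 dpw it stood at 243 CPM (29 UMIs in 4 cells) and 208 CPM (17 UMIs in 3 cells). Within Foxp3 cells at 5 dpw, Areg stood at 148 and 18.3 CPM, and in the other T cells at 13.5 and 5.12 CPM. In the remaining cells of the libraries it was the other way round at 5 dpw, with 5.18 CPM in Angptl4+/+ and 15.3 CPM in Angptl4-/- wounds. Of the 13 regulatory genes 2, Areg and Tnfrsf9 (-1.29), passed lower and 1, Il10, passed higher, with all 22 Il10 UMIs of the Angptl4-/- library in 1 cell.

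Interferon-induced genes passed higher in Angptl4-/- T cells at 5 dpw for 7 of 15 (median 0.74), among them Ifit3 (2.58, 1.69 to 3.57), Isg15 (2.08, 1.31 to 2.91) and Irf7 (1.20), while Ifi27l2a (-0.02) did not. Ifit3 in the other cells stood at 100 and 110 CPM in the same libraries. With each cell weighted alike 5 of 15 passed higher, and without cycling cells 2 of 12. Cell cycle genes passed lower for 7 of 13 (median -1.16), with log2 ratios of -1.42 (-1.65 to -1.20) for Mki67, -1.47 (-1.71 to -1.23) for Top2a and -0.93 for Hmgb2. The share of cells with Mki67 or Top2a, 42.1% and 37.1%, differed by -4.96 points (-17.6 to 7.92) at full depth and by -9.82 points at 2500 UMIs (29.8% and 20%), and at 1000 UMIs the shares were 25.4% and 7.62%. Cells with 5 or more UMIs of the pair, a threshold chosen after the values were seen, were 25 of 114 (21.9%) and 9 of 105 (8.57%), a difference of -13.4 points (-22.7 to -3.79). Among Foxp3 cells they were 18 of 29 and 9 of 20 (-17.1 points, -41.6 to 10.5), and among the others 7 of 85 and 0 of 85, which allows a share of up to 3.53%. With each cell weighted alike 11 of the 13 cell cycle genes passed lower, without cells above 20000 UMIs 12 of 13, and without cycling cells none of the 3 that could be compared. The last count follows from how those cells were removed.

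**Figure D5:**
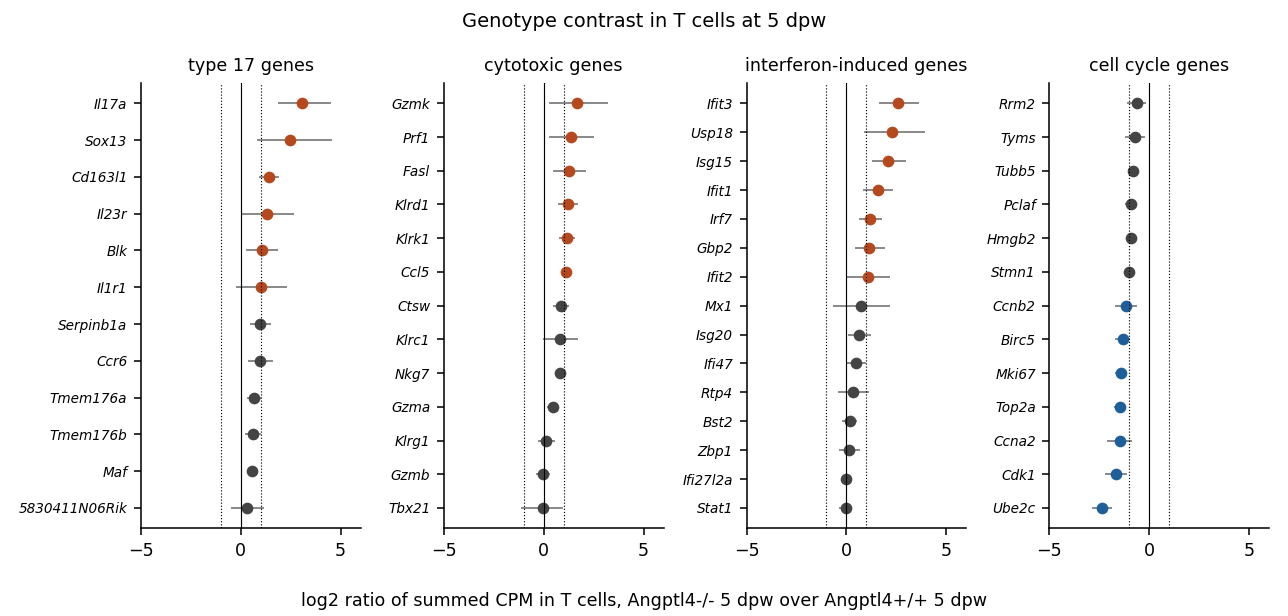
Log2 ratio of summed CPM in Angptl4-/- over Angptl4+/+ T cells at 5 dpw for the type 17, cytotoxic, interferon-induced and cell cycle lists, with 95% counting intervals, dotted lines at 2-fold and 12 of the 13 type 17 genes drawn. Coloured points passed 2-fold, with 6 of 13, 6 of 13 and 7 of 15 higher in the first 3 lists and 7 of 13 lower in the cell cycle list.

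Among single genes with at least 5 cells in the higher library, the largest differences between genotypes at 5 dpw were in gene models that also differed in other cells. Gm10036 had 54 UMIs in 40 Angptl4-/- T cells and 0 in Angptl4+/+ T cells (at least 25-fold), and stood at 0.0918, 0.320, 22.4 and 21.3 CPM in the other cells of the 4 libraries. Gm2682 had 64 UMIs in Angptl4+/+ and 2 in Angptl4-/- T cells at 5 dpw (-4.53, -7.60 to -2.62), against 0.489, 3.62, 0.329 and 0.0771 CPM in the other cells. Such predicted genes can share reads with near-identical copies, and their values are uncertain. Further named genes on the higher side were Rln3 (3.21), Ifi204 (2.91), an interferon-inducible DNA sensor, and Ms4a4c (2.43). Ifi204 stood at 362, 293, 299 and 232 CPM in the other cells. On the lower side were the histone gene Hist1h2br (-4.11), Alox5ap (-3.23), needed for leukotriene synthesis, the early response factor Egr3 (-3.11), the mitotic kinase Ttk (-2.94) and the chemokine Cxcl16 (-2.92), the ligand of Cxcr6. A single Angptl4+/+ cell held 76.9% of the 26 Alox5ap UMIs, 58.3% of the 24 Egr3 UMIs and 57.1% of the 63 Cxcl16 UMIs of its library, each gene taken by itself, and without cells rich in Cd74 the ratio was -1.17 for Alox5ap and -1.58 for Cxcl16. Ly6c2, a surface protein of memory T cells and monocytes, stood at 285, 108, 894 and 399 CPM in the T cells of the 4 libraries and was higher in Angptl4-/- T cells at 1 dpw (1.65, 1.04 to 2.28) and at 5 dpw (1.88, 1.61 to 2.17).

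Beside 2.93% of all genes higher and 4.1% lower between genotypes at 5 dpw, the other lists were those of receptor signalling (1 of 18 higher, Cd96), transcription factors (1 of 17 lower, Id3), naive genes (2 of 10 lower, Dapl1 and Igfbp4), residence genes (1 of 9 higher, Itga1), homing receptors (1 of 15 higher, Cx3cr1), costimulation and checkpoint receptors (2 of 11 lower, Tnfrsf9 and Havcr2), cytokine receptors (3 of 16 higher), epidermal gamma-delta genes (3 of 10 higher), immediate early genes (1 of 12 higher, Egr1) and the 3 lineage coreceptor genes (0). The 3 genes that the study itself follows were nearly absent from T cells. Angptl4 had 0, 4, 0 and 0 UMIs, Ifi202b 0, 0, 0 and 2 and Hebp1 0, 0, 0 and 1 in the order Angptl4+/+ 1 dpw, Angptl4+/+ 5 dpw, Angptl4-/- 1 dpw and Angptl4-/- 5 dpw, so the deletion was checked in macrophage-type cells, where Angptl4 had 18 and 22 UMIs in the Angptl4+/+ libraries at 1 and 5 dpw and 0 in both Angptl4-/- libraries.

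At 1 dpw the genotypes were compared on 18 and 13 T cells, and 168 of 1688 genes passed 2-fold (9.95%), 62 higher in Angptl4-/- T cells (3.67%) and 106 lower (6.28%). Gzmb led the 10 lowest genes named for this comparison, at 1317 CPM in Angptl4+/+ and 85.7 CPM in Angptl4-/- T cells (-3.94, -5.28 to -2.86), and Gzma also passed lower (-3.95), on 2 UMIs. Of the regulatory list 3 of 9 passed lower, Ctla4, Il2ra (486 and 171 CPM, -1.50) and Tnfrsf9 (411 and 122 CPM, -1.75), and 2 of 10 immediate early genes, Jun and Fosb (-1.55), did. Without cycling cells Il2ra (-0.17) and Tnfrsf9 (-0.54) no longer passed. Costimulation and checkpoint receptors passed lower for 3 of 7, and homing receptors passed higher for 2 of 8 and lower for 1. Among markers of other cell types Fcer1g passed higher and Gzma, Ighm and Hilpda lower, and their part in the results was not tested. Batf, a factor of activated T cells (-2.33), and Pgk1, an enzyme of glycolysis (-2.29), were also among the 10 lowest, and Slfn5 (2.68) and Neurl3 (1.71) among the 10 highest. Il17a had 29 UMIs in 1 Angptl4+/+ T cell and 1 UMI in 1 Angptl4-/- T cell, while other passing cells held 0 and 18 UMIs. Each library enters 2 of the 4 comparisons between libraries, so these are not independent of each other.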

How the data were processed

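The deposited values were counts, 1 matrix of whole UMIs per gene and cell for each of the 4 libraries, which the authors made from 10x 3' libraries. The submitters' processing notes name Cell Ranger 3.1.0, Seurat 3.0 and the mm10 genome. The 20069 deposited barcodes were filtered to 19827 cells with at least 200 genes and at most 10% mitochondrial UMIs, and no column of another sample was present. T cells carried 2821 to 73329 UMIs. The members, the gates and the 28 gene lists were chosen with earlier results of these data known.

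UMIs were summed over the T cells of each library and given per 1000000 UMIs of those cells. A gene was compared when it had at least 20 UMIs in both libraries together and was counted as past 2-fold at a log2 ratio of 1 or more in either direction. Exact Poisson, binomial and Newcombe intervals at 95% cover counting error only. With 1 library per group no p-value was computed, and a ratio against 0 was bounded with a floor of 3 UMIs. Named genes were the up to 4 most abundant of each list and every gate gene, the 10 highest and 10 lowest log2 ratios of each comparison among genes with 5 or more cells in the higher library and an interval without 0, the 20 leading genes against other cells and the 10 at either end against NK-type cells. Other genes of a list, and Areg, Ly6c2 and the Egr, Ifit and gamma-delta genes where outside these rules, were named after their values were seen.

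Doublets were scored with Scrublet in scanpy 1.11.5. Its automatic threshold called 24 cells, so the top 5% of scores (943 cells, 2 of them T cells) were used as an alternative only. Neutrophil-type background cells were allowed Hdc because most cells with Csf3r carried it. Cells were thinned to 1000 or 2500 UMIs to compare shares at equal depth, and no T cell fell below 1000. Python 3.11.15, numpy 2.4.6, pandas 2.3.3, scipy 1.17.1 and matplotlib 3.10.9 were used, with R 4.3.3 and edgeR 4.0.16 for TMM factors. The ratio and interval code was tested on simulated data. Alternatives covered the choice of T cells, the depth, the doublets, the gene filter, the weighting of cells, the scaling and the removal of cycling, deep, S100-rich or Cd74-rich cells. Values of some listed genes are not reported here.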

Additional observations from a re-analysis of the deposited data

Results flagged for a closer look

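Ifng ran in opposite directions between days in the 2 genotypes. Its log2 ratio of 5 dpw over 1 dpw was -2.38 (-3.42 to -1.26) in Angptl4+/+ T cells and 2.03 (0.14 to 5.10) in Angptl4-/- T cells. The 1 dpw values came from 12 UMIs in 2 cells and 2 UMIs in 2 cells, the 5 dpw values from 26 UMIs in 16 cells and 97 UMIs in 20 cells. Without cycling T cells the first ratio was 0.044. The difference between genotypes was not tested.

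Within the chosen T cells Il17a ran in opposite directions between genotypes on the 2 days. Its log2 ratio of Angptl4-/- over Angptl4+/+ T cells was -4.31 (-9.66 to -1.72) at 1 dpw, from 1 UMI against 29 UMIs in a single cell each, and 3.06 (1.89 to 4.46) at 5 dpw, from 42 UMIs in 5 cells, 61.9% of them in 1 cell, against 7 UMIs in 1 cell. In the other passing cells Il17a had 0 UMIs in Angptl4+/+ wounds on both days. Such cells of Angptl4-/- wounds held 18 UMIs at 1 dpw and 46 at 5 dpw, so the direction at 1 dpw holds only for the chosen cells. The difference between days was not tested.

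T cell transcripts were also present in cells outside the population described. Of cells with 2 or more Cd3e and Cd3g UMIs, 54 carried Hdc, 26 carried Csf1r and 11 carried Ncr1, and some carried both Hdc and Csf1r. The Hdc cells were 8, 16, 7 and 23 in the order Angptl4+/+ 1 dpw, Angptl4+/+ 5 dpw, Angptl4-/- 1 dpw and Angptl4-/- 5 dpw, the Csf1r cells 2, 14, 1 and 9 and the Ncr1 cells 1, 5, 0 and 5. Of those with Hdc 15 were called as doublets, and of those with Csf1r 9.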

How the results depend on the processing

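No paired analysis was possible because each group has 1 library, and for the same reason no library could be left out in turn. The settings with 2500 UMIs and those without cycling, deep or Cd74-rich cells, with Hdc or Csf1r cells kept, and with 2 UMIs for the Foxp3 and cycling gates were chosen after seeing the data. Of 1886 values recomputed 1621 stayed within the counting interval of the reported value or, for counts of genes, within 1.5 times it, and 265 did not. The T cell share between genotypes, whose intervals held 0, ran from -0.0845 to 0.00790 points at 1 dpw and from -0.198 to 0.265 points at 5 dpw over the settings, with 0.265 at 1000 UMIs and 0.173 with Hdc cells kept. The T cell share stayed higher at 5 dpw in every setting run. The difference was 1.06 points in Angptl4+/+ and 0.854 points in Angptl4-/- wounds with at most 5% mitochondrial UMIs, and 0.666 and 0.973 points when all cells were thinned to 1000 UMIs.

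Shares of several gates moved with depth and with the number of UMIs asked for. In the order Angptl4+/+ 1 dpw, Angptl4+/+ 5 dpw, Angptl4-/- 1 dpw and Angptl4-/- 5 dpw, at 1000 UMIs alpha-beta-type cells were 38.9%, 39.5%, 30.8% and 36.2% and Cd4-only cells 11.1%, 8.77%, 0% and 14.3%. Foxp3 cells were 5.56%, 4.39% and 0.952% at 1000 UMIs in the first, the second and the last library. Cd8-only cells were 10.5%, 7.69% and 13.3% and cycling cells 25.4%, 0% and 7.62% in the last 3 libraries. At 2500 UMIs, Cd4-only cells were 16.7%, 17.5% and 21.9% in Angptl4+/+ 1 dpw and the 5 dpw libraries, and alpha-beta-type cells were 60.5% and 58.1%, cycling cells 29.8% and 20% in the 5 dpw libraries, with Foxp3 cells at 11.4% in Angptl4+/+ 5 dpw. With 2 UMIs of the gene, Cd4-only cells were 21.9% and 20% and cycling cells 27.2% and 19.0% at 5 dpw, cycling cells 0% in Angptl4-/- 1 dpw and alpha-beta-type cells 50% in Angptl4+/+ 1 dpw.

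Counts of genes past 2-fold were 1069, 687, 29 and 207 with at least 50 UMIs a gene, for days in Angptl4+/+, days in Angptl4-/-, genotypes at 1 dpw and genotypes at 5 dpw. Fewer genes could be tested in that setting. Without cycling cells they were 679 and 723 for the days, and without cells above 20000 UMIs 1126 for the days in Angptl4+/+, again with fewer genes tested.

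Of the named ratios past 2-fold, 21 of 46 between days in Angptl4+/+, 25 of 38 in Angptl4-/- T cells, 25 of 28 between genotypes at 1 dpw and 23 of 41 at 5 dpw were still past it without cycling cells, where some genes had few UMIs left. With each cell weighted alike 33, 33, 28 and 34 were. Of 1750 log2 ratios recomputed 98 changed sign, 77 of them ratios within 2-fold whose interval held 0 and 21 ratios past 2-fold or with an interval without 0. These 21 follow. Without cycling cells the ratio between days changed direction in Angptl4+/+ T cells for Cdca8 (-0.76), Cxcr4 (0.24), Ifit1 (0.97), Hist1h1b (-2.35), Hist1h2ap (-1.35), Tubb5 (-0.70), Ifng (0.044), Klrd1 (0.058) and Maf (1.40), and in Angptl4-/- T cells for Cd74 (-0.62), Hbs1l (-1.03) and Il2ra (-0.10). Between genotypes it did for Ccl5 at 1 dpw (1.64) and Hmgb2 (0.040), Ikzf2 (0.38) and Stmn1 (0.31) at 5 dpw. Without cells above 20000 UMIs Cd74 (-0.32) and Il2ra (-0.34), and with each cell weighted alike Il2ra (-0.42), changed direction between days in Angptl4-/- T cells. In Angptl4+/+ T cells Klrk1 did so without cells rich in S100a8 and S100a9 (0.13) and Ifit1 with each cell weighted alike (0.036). The causes were not tested.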

Other observations

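Type 2 and some type 17 cytokines were at or near the floor of these T cells. Il22 and Csf2 had no UMI in any of the 4 libraries, and Il4 and Il13 had 1 UMI each, both in Angptl4-/- T cells at 5 dpw. Ltb, lymphotoxin beta, was the cytokine transcript seen in most cells, at 537 and 456 CPM in Angptl4+/+ T cells at 1 and 5 dpw (15 and 101 cells) and 723 and 633 CPM in Angptl4-/- T cells (11 and 100 cells). Tgfb1 stood at 151, 159, 196 and 143 CPM in the same order, so its libraries lay close together. Tnf stood at 75.5, 26.1, 36.7 and 37.2 CPM, and the first value came from 9 UMIs in 1 cell.

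Il7r, the receptor for the survival cytokine interleukin 7, stood at 696, 433, 894 and 605 CPM, and Rgs1, a regulator of chemokine receptor signalling in tissue T cells, at 361, 270, 551 and 424 CPM. Both were lower at 5 dpw than at 1 dpw in either genotype without reaching 2-fold. Gata3, the factor of type 2 T cells, stood at 159, 115, 110 and 102 CPM and was seen in 113 of the 250 T cells, while Tbx21, the factor of type 1 T cells, stood at 0, 17.1, 49.0 and 16.5 CPM.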
